A study of Mus musculus with 4 samples.

Results

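Interferon-induced genes and guanylate-binding proteins (GBPs) were followed in mouse liver under a high-fructose diet and after loss of Chrebp. The list held 10 genes: Gbp2, Gbp3, Gbp6, Gbp7, Gbp10, Irf7, Ifit1, Ifit3, Isg15 and Cxcl10. A gene was read where a probe set (the group of array probes summarised into 1 value) was annotated with that gene symbol alone, and by the brightest such probe set where several existed. This found 9 of the 10 genes among 22180 genes on the array, each with 1 probe set. Gbp2 was not read, because its probe set is annotated to its neighbour Gbp2b as well.

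Liver RNA of C57BL/6 mice older than 2 months was hybridised to 4 Affymetrix arrays, 1 for each pool of livers. The first pair of pools was made of 6 mice lacking Chrebp (Chrebp-null) fed a 70% fructose diet for 2 weeks, and of 4 wild-type (WT) mice on the same diet for 2 weeks. The second pair came from 7 WT mice given the fructose diet for 3 weeks, and from 7 WT mice on regular chow. The labels give the strain of all pools as C57BL/6, with no substrain, and males and females were in each of them in proportions that the labels do not state. How the Chrebp allele was made, and whether the null mice were littermates of either WT pool, is not stated there either. The Mlxipl gene encodes ChREBP, a sugar-responsive transcription factor. Each group is 1 array, so no difference below has a replicate check or a p-value, and precision is limited by having so few arrays. The pools of a pair also differ in mice, and genotype or diet cannot be told apart from any other trait of the pool.

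The median log2 level of an array was between 3.11 and 3.17. The probe set of Mlxipl read 8.09 in the Chrebp-null pool and 9.83 in WT at 2 weeks, and 9.64 in WT at 3 weeks and 9.25 on chow. The null pool was thus lowest, as its label says, with signal left. The part of the gene that these probes cover is not stated in the labels. The 6 hepatocyte markers examined, among them Alb and Ttr, read between 11.46 and 12.72 in the 4 pools, near the top of the array's range of 12.76. A level was called above the floor at 3.52 or more, which is the middle value of the mean levels of all genes. A gene was assessed in a comparison where its higher pool was above the floor, and counted where the pools differed by at least 2-fold, which is 1 on the log2 scale.

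Interferons bind receptors on the cell surface and act through the JAK kinases on transcription factors, which enter the nucleus and switch on a shared set of genes. Type I interferons act mainly through the interferon-stimulated response element (ISRE) in the promoters of these genes, and interferon gamma mainly through the gamma-activated site (GAS). In the liver, hepatocytes, Kupffer cells and endothelium all respond. IRF7 amplifies type I interferon production. IFIT1 and IFIT3 bind or help to bind foreign RNA, ISG15 is a ubiquitin-like protein that is attached to other proteins, CXCL10 attracts T cells that carry CXCR3, and the GBPs are large GTPases that gather on the membranes around intracellular microbes.

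The promoters of the members show what they share in sequence apart from their levels. RefSeq promoter windows (GRCm38.p6) of 300 bases, 250 before and 50 after a transcript start, were given for 8 of the 10 genes. No window was given for Gbp6 and Gbp10. The ISRE core was searched on both strands as 2 copies of GAAA with any 2 bases between them, or as 2 copies of TTTC so spaced. It stood in 7 of the 8 genes, against 3.99% of the 27025 genes with a window. By window it stood in 7 of 9, against 3.44% of all 32851 windows. Gbp3 has 2 windows, and the second held no ISRE core. Of the other interferon-induced effectors 17 of 40 genes with a window held it, and of the other GBPs and related GTPases 7 of 8. The stretches below are printed because they hold these letters. Capitals mark the ISRE core, each stretch runs 5′ to 3′ on the strand of its gene, and the 15 bases on either side give the context. They lie at chr3:142620589-142620628 for Gbp2 (plus strand), chr3:142559984-142560029 for Gbp3 (plus), chr3:142530268-142530307 for Gbp7 (plus), chr19:34640770-34640828 for Ifit1 (plus), chr19:34583358-34583431 for Ifit3 (plus), chr4:156200860-156200911 for Isg15 (minus) and chr5:92349078-92349117 for Cxcl10 (minus).
Gbp2: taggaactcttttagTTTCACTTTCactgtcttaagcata
Gbp3: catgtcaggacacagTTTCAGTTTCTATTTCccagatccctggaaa
Gbp7: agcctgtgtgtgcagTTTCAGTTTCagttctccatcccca
Ifit1: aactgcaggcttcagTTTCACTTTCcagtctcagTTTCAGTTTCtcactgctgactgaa
Ifit3: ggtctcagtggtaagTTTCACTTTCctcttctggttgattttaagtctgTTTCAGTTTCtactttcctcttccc
Isg15: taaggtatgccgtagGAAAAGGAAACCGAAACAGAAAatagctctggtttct
Cxcl10: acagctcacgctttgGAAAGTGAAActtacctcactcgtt

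Isg15 carried 3 overlapping matches, Gbp3 carried 2 overlapping ones, and Ifit1 and Ifit3 carried 2 separate ones each. In the other 3 genes there was 1 match. The first base of a match lay between 213 and 39 bases before the start. A GAS motif, searched as TTCNNNGAA, which is its own reverse complement, was found in Gbp7 alone, at 2 places that do not overlap its ISRE core, against 9.55% of genes. An NF-kB core was searched as GGGA and TTCC with any 2 bases between them, or GGAA and TCCC so spaced. It was found in Cxcl10 and in Gbp2, against 1.63% of genes, and overlapped no other match. The Gbp2 match lay after the start, at 7 to 16 bases from it. The Irf7 window held none of the 3. A match is a run of letters and not evidence of binding, and its absence holds for these windows only.

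**Figure D1:**
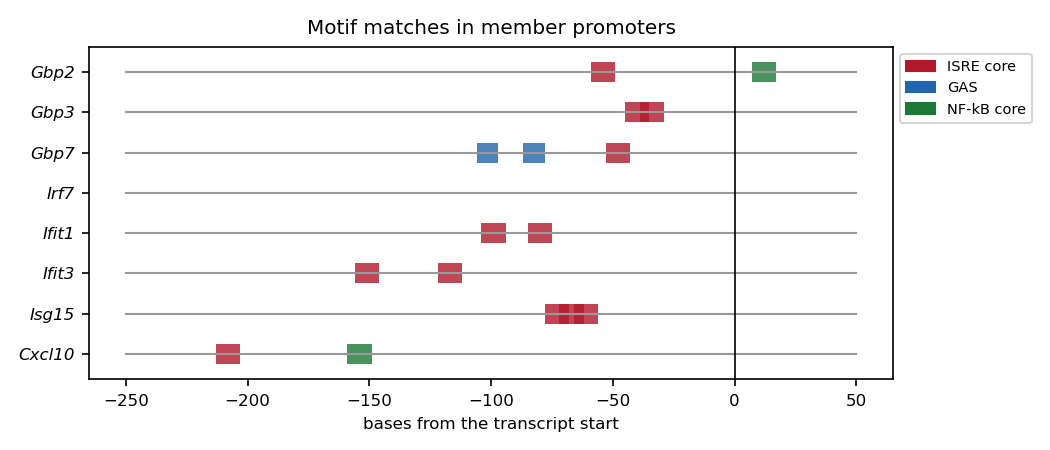
Positions of motif matches in the RefSeq promoter windows of 8 members (for Gbp3 the first of its 2 windows), in bases from the transcript start. Boxes are matches to the ISRE core (red), GAS (blue) or NF-kB core (green), and darker red marks overlap. The ISRE matches of 7 genes lie before the start, and Irf7 has no match.

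Without Chrebp, after 2 weeks of fructose, Gbp10 was lower and Cxcl10 higher by more than 2-fold, while the other members stayed under 2-fold. Of the 9 genes read, 8 were above the floor, and Gbp6 was below it in every pool. Of the 8, 1 was at least 2-fold higher in the null pool, where 2.03% of the 11631 genes assessed were, and 1 was at least 2-fold lower, where 1.43% were. With 8 genes, 1 in each direction is too few to be read against those shares. Of the 8, 4 had a positive difference, and the median was 0.02, against 0.10 over all genes assessed. The same question for fructose itself, WT at 3 weeks over WT chow, gave Gbp10 alone past 2-fold. There 0 of the 8 members were at least 2-fold higher (0.64% of 11717 genes were) and 1 was at least 2-fold lower (1.16% were). The median was -0.13, against -0.05 over all genes assessed, and 7 of the 8 differed by less than 0.5 in either direction, as did 84.3% of genes. In the Chrebp-null comparison 5 of the 8 did, against 82.3% of genes. WT at 2 weeks over chow, which shares the chow array, had 3 of the 8 within 0.5, against 85.8% of genes. There 6 of the 8 were negative, with a median of -0.39, against -0.04 over all genes. The other interferon-induced effectors leaned the other way in that comparison, with 31 of 44 positive and a median of 0.15.

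**Figure D2:**
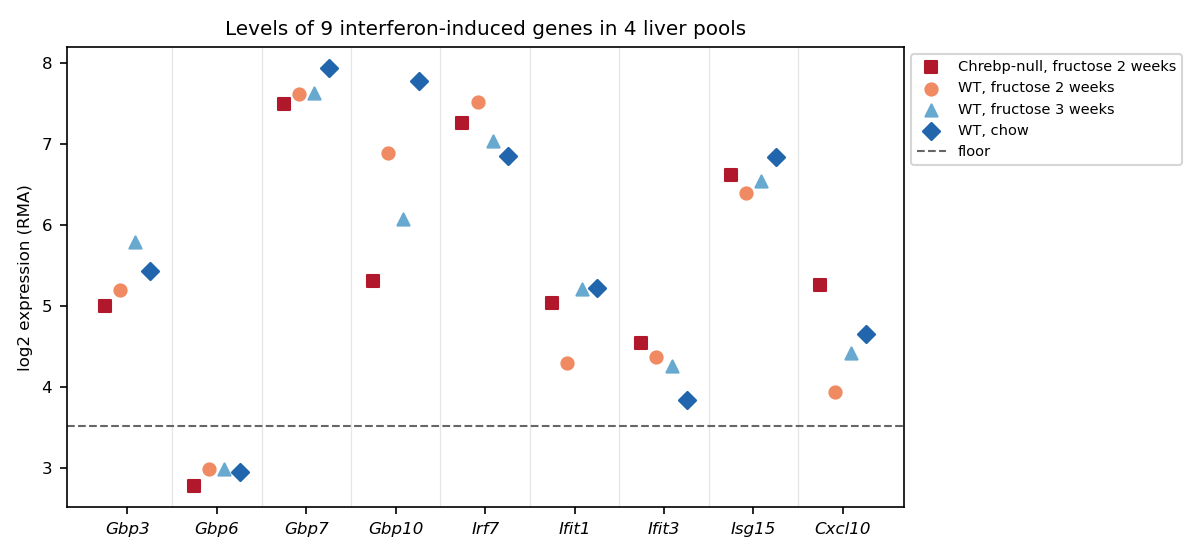
Log2 expression of the 9 members read, 1 point per pool, with the dashed line at the floor of 3.52. Gbp10 spreads from 5.31 in the Chrebp-null pool to 7.78 on chow, Cxcl10 is highest in the Chrebp-null pool, and Gbp6 lies below the floor in all 4 pools.

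Gbp10 varied more between pools than any other member, over a range of 2.47 on the log2 scale. It read 5.31 in the Chrebp-null pool and 6.89 in WT at 2 weeks, a difference of -1.58 or a ratio of 2.99. It read 6.08 in WT at 3 weeks and 7.78 on chow, a difference of -1.70 or a ratio of 3.25. The null pool was the lowest of the 4 and the chow pool the highest, with both WT fructose pools between them. Of the genes assessed, 54 were lower than Gbp10 in the Chrebp-null comparison and 10 in the fructose comparison. These comparisons share no array, and 6 of the 11154 genes assessed in both were at least 2-fold lower in both, Gbp10 among them. Among the 11154 genes, 142 were at least 2-fold lower in the first comparison and 133 in the second. The 6 were 4.23% and 4.51% of these. Of all genes assessed in each comparison, 1.43% were at least 2-fold lower in the first and 1.16% in the second. The size depended on which WT fructose pool was taken, since the WT pools themselves differed by -0.81 in Gbp10 (3 weeks over 2 weeks). Against WT at 3 weeks the null pool stood at -0.77, and WT at 2 weeks stood at -0.89 against chow, both under 2-fold. With these pools 0 of the 8 members passed 2-fold in either direction. Over all genes, 3.38% were at least 2-fold higher and 1.95% lower in the null pool than in WT at 3 weeks, and 0.783% were higher and 1.41% lower in WT at 2 weeks than on chow.

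**Figure D3:**
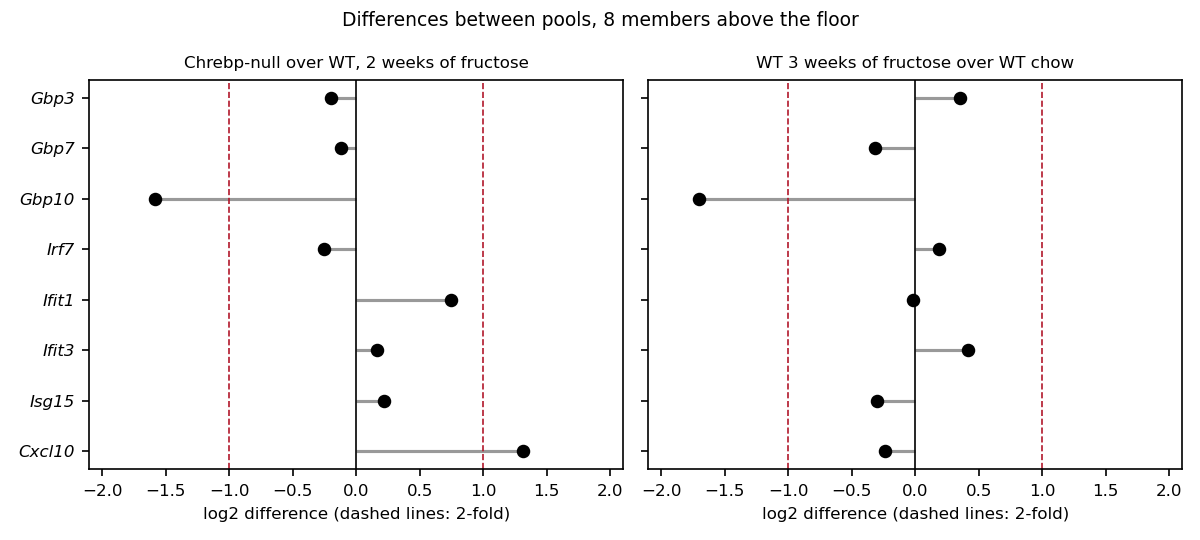
Log2 differences of the 8 members above the floor, Chrebp-null over WT at 2 weeks of fructose on the left and WT at 3 weeks of fructose over chow on the right. Dashed lines mark 2-fold. Gbp10 lies beyond the lower line in both panels, at -1.58 and -1.70, and Cxcl10 lies beyond the upper line on the left only, at 1.32.

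The other GBP members showed no such spread. Gbp7 read 7.49 in the Chrebp-null pool and 7.61 in WT at 2 weeks, and 7.63 in WT at 3 weeks and 7.94 on chow. Its range of 0.45 was, with that of Isg15, among the smallest of the members above the floor. Gbp3 read 5.0 in the Chrebp-null pool and 5.20 in WT at 2 weeks, and 5.79 in WT at 3 weeks and 5.43 on chow. The 2 fructose-fed WT pools therefore lay on either side of chow for Gbp3, and its direction on fructose depended on the pool. Gbp6 read between 2.77 and 2.99, below the floor, so that its pools cannot be ordered.

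Gbp10 and Gbp6 lie next to each other in a run of GBP genes on chromosome 5, in the order Gbp8, Gbp9, Gbp4, Gbp10, Gbp6, Gbp11, while Gbp5, Gbp7, Gbp3, Gbp2b and Gbp2 form a run on chromosome 3. The annotation lists Gbp11 as a transcribed pseudogene. Its probe set read 4.37 in the Chrebp-null pool and 3.80 in WT at 2 weeks, and 8.23 in WT at 3 weeks and 8.97 on chow. Levels were thus low in both pools of the first pair, at 2 weeks of fructose, and high in both pools of the second. The cause of this split was not tested. The labels do not say whether both pairs came from 1 colony. Within the pairs the differences were 0.57 and -0.73, both under 2-fold, but WT at 3 weeks stood 4.44 above WT at 2 weeks, the null pool stood at -3.87 over WT at 3 weeks, and WT at 2 weeks at -5.17 over chow. Gbp8 read 5.23 in the Chrebp-null pool and 5.55 in WT at 2 weeks, and 5.03 in WT at 3 weeks and 5.76 on chow. Gbp9 read 5.52 in the Chrebp-null pool and 6.06 in WT at 2 weeks, and 5.81 in WT at 3 weeks and 6.14 on chow. In both genes the fructose-fed pools were below chow, as in Gbp10, but by less than 2-fold. Gbp4 read 4.13 in the Chrebp-null pool and 4.19 in WT at 2 weeks, and 3.93 in WT at 3 weeks and 3.30 on chow, so that its one level below the floor was on chow. These genes are similar copies, and array probes may not separate them, so the values of Gbp10, Gbp6 and Gbp11 are uncertain.

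**Figure D4:**
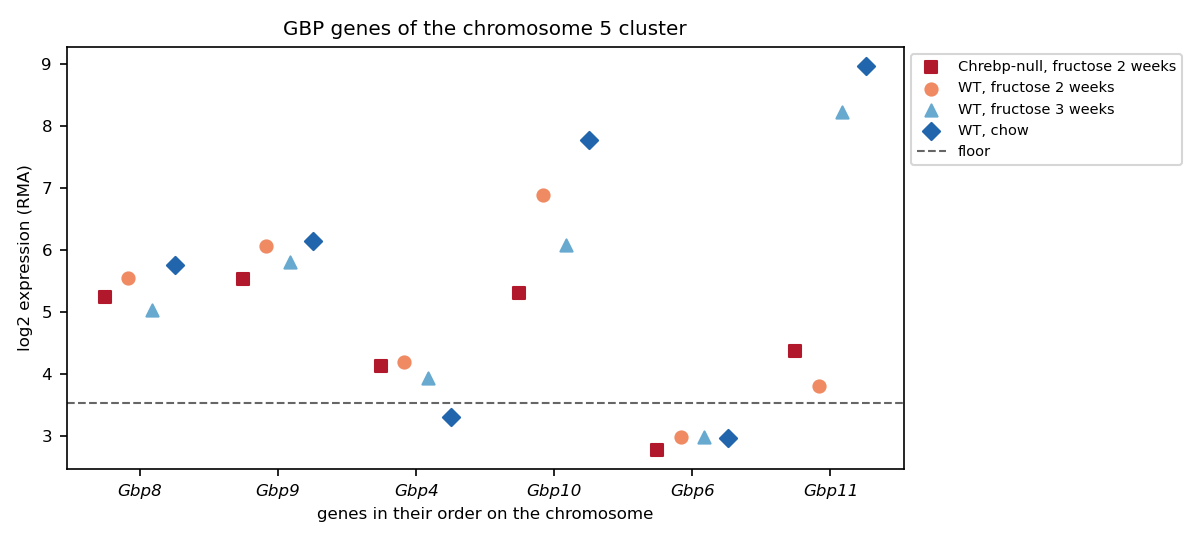
Log2 expression of the 6 GBP genes of the chromosome 5 run in their order on the chromosome, 1 point per pool, with the floor as a dashed line. Gbp10 spreads over all 4 pools, Gbp11 reads 8.23 and 8.97 in WT at 3 weeks and on chow but 4.37 and 3.80 in the pools at 2 weeks, and Gbp6 is below the floor throughout.

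Among the other GTPases, 10 of the 14 listed genes were read, including immunity-related GTPases (IRGs), which act on the vacuoles of intracellular parasites. In the Chrebp-null comparison 0 of 9 assessed were at least 2-fold apart, where 2.03% of all genes were higher and 1.43% lower. Their median was -0.06, against 0.10 over all genes. In the fructose comparison 0 of 10 were 2-fold apart, where 0.64% of all genes were higher and 1.16% lower. There the median was -0.23, against -0.05 over all genes. The largest differences in the null comparison beside Gbp11 were those of Gbp2b at -0.57 and Gbp9 at -0.53. On fructose the largest beside Gbp11 were those of Gbp8 at -0.73 and Irgm2 at -0.72. Irgm1 and Igtp stood at 0.27 and -0.01 in the null comparison, and at 0.22 and -0.19 on fructose.

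Cxcl10 was the member that was higher in the null pool. It read 5.26 in the Chrebp-null pool and 3.94 in WT at 2 weeks, a difference of 1.32 or a ratio of 2.49, and 83 of the 11631 genes had a larger one. In WT at 3 weeks it read 4.41, and on chow 4.65, a difference of -0.24. The null pool was the highest of the 4 and WT at 2 weeks the lowest. Against WT at 3 weeks the null pool stood at 0.84, under 2-fold, and against chow at 0.61. All 250 bases before the Cxcl10 start (chr5:92348890-92349139, minus strand) are printed because it is the 1 gene past 2-fold among the members with a window. Capitals mark the ISRE core and, further on, the match to the NF-kB letters searched, at 159 bases before the start. Other forms of these motifs were not searched and would stand in lower case.
Cxcl10: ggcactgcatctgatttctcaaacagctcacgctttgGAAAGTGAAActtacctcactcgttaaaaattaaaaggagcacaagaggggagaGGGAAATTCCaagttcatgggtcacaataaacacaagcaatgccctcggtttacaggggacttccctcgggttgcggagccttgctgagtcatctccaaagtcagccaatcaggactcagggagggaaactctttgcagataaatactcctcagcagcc

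The ligands that share the receptor CXCR3 with CXCL10 gave different values. Cxcl11 read 4.39 in the Chrebp-null pool and 3.37 in WT at 2 weeks, a difference of 1.02 that becomes 0.87, under 2-fold, if the WT level is raised to the floor. In WT at 3 weeks it read 4.47, and on chow 4.11. Cxcl9 read 8.57 in the Chrebp-null pool and 9.11 in WT at 2 weeks, a difference of -0.55 and so the other way from Cxcl10. Cxcl9 read 9.33 in WT at 3 weeks and 9.20 on chow. For Cxcr3 itself, the receptor, the null pool read 3.62 and WT at 2 weeks 3.06, the second below the floor. Of the list of these 3 and 5 other chemokines, 6 genes were assessed in the null comparison, Cxcl11 and Cxcr3 through the null pool alone. Cxcl11 was the 1 gene past 2-fold as read, where 2.03% of all genes were at least 2-fold higher. The median of the 6 was 0.48 as read and 0.26 once levels below the floor are raised to it. On fructose the median was 0.05 over 5 genes.

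Cell type markers were read beside these values. RNA of whole liver cannot tell fewer cells of a type from less RNA per cell. Of 8 Kupffer cell and macrophage markers all were above the floor. The log2 of their summed signal was 10.84 in the Chrebp-null pool and 10.65 in WT at 2 weeks, and 10.32 in WT at 3 weeks and 10.30 on chow. Gene by gene, 4 of the 8 were positive in the null comparison, with a median of -0.06, against 0.10 over all genes assessed. On fructose 3 of the 8 were positive, with a median of -0.14. For the null pool over WT at 3 weeks 7 of the 8 were positive, with a median of 0.38, against 0.11 over all genes. Over chow 8 of 8 were, with a median of 0.31, against 0.06 over all genes. For WT at 3 weeks over WT at 2 weeks 7 of the 8 were negative, with a median of -0.33. The 1 marker past 2-fold in the null comparison was Marco, a scavenger receptor, at 2.66 (2.03% of all genes were at least 2-fold higher). Cd68 stood at 0.61, Adgre1 at -0.45 and Clec4f at -0.22. For 7 T cell markers the log2 summed signal was 6.65 in the Chrebp-null pool and 6.63 in WT at 2 weeks, and 6.87 in WT at 3 weeks and 6.92 on chow. Cd3d, Cd8a and Cd2 were below the floor in every pool. So were 5 of 6 NK cell markers, 4 of 5 neutrophil markers, S100a8 and S100a9 among them, and 3 of 5 dendritic cell markers. For the 5 dendritic cell markers read, the log2 summed signal was 5.46 in the Chrebp-null pool and 5.35 in WT at 2 weeks, and 5.50 in WT at 3 weeks and 5.28 on chow. The 2 above the floor in any pool, Itgax and Xcr1, were above it in the null pool alone. These sums therefore cannot order the pools. Of the 4 B cell markers read, 2 were below the floor in every pool. Sinusoidal endothelial markers, 5 of 5 above the floor, had a median of -0.17 in the null comparison, with Lyve1 at -1.01, and 0.36 on fructose, with Lyve1 at 0.81. The median of 4 stellate cell markers was 0.04 in the null comparison and -0.11 on fructose. The part of any of these cell types in the values of Gbp10 and Cxcl10 was not tested.

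The type I interferon effectors among the members differed by less than 2-fold between any pools. Their ranges over the 4 pools were 0.93 for Ifit1, 0.70 for Ifit3 and 0.44 for Isg15. Ifit1 read 5.04 in the Chrebp-null pool and 4.29 in WT at 2 weeks, a difference of 0.75. It read 5.21 in WT at 3 weeks and 5.22 on chow, a difference of -0.01. WT at 2 weeks was thus the one pool that stood apart, lower than WT at 3 weeks by 0.91, and against WT at 3 weeks the null pool stood at -0.17. Ifit3 read 4.54 in the Chrebp-null pool and 4.37 in WT at 2 weeks, and 4.26 in WT at 3 weeks and 3.84 on chow. The 3 fructose-fed pools of Ifit3 were all above chow, by less than 2-fold. Isg15 read 6.62 in the Chrebp-null pool and 6.40 in WT at 2 weeks, and 6.55 in WT at 3 weeks and 6.84 on chow. For Isg15 the order was reversed, with the 3 fructose-fed pools below chow, and the differences of 0.22 and -0.30 within pairs were small.

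Irf7, the one transcription factor among the members, read 7.27 in the Chrebp-null pool and 7.52 in WT at 2 weeks. It read 7.04 in WT at 3 weeks and 6.85 on chow. The fructose-fed pools were above chow by 0.42, 0.67 and 0.19 for the null pool and WT at 2 and 3 weeks. The difference between the null pool and WT turned from -0.25 at 2 weeks to 0.22 against WT at 3 weeks, and so had no settled direction.

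Of 54 other interferon-induced effectors 49 were read, and most were near 0 in both comparisons. In the Chrebp-null comparison the median of the 44 assessed was 0.04, against 0.10 over all genes assessed. Of the 44, 1 was at least 2-fold higher (2.03% of all genes were) and 0 were at least 2-fold lower (1.43% were). The 1 was Oasl1, a 2′-5′-oligoadenylate synthetase-like protein that restrains IRF7 translation in mice. It read 6.47 in the Chrebp-null pool and 5.04 in WT at 2 weeks, a difference of 1.42, and 5.27 in WT at 3 weeks and 5.29 on chow. Oasl1 also passed 2-fold against WT at 3 weeks, by 1.20. Its level differed little among the 3 WT pools, and the null pool alone stood apart. Mx2, an antiviral GTPase, stood at 0.82, and Ifi204, a DNA-binding protein, at -0.63. Oas1g read 0.86 higher in the null pool, but its WT level at 2 weeks was below the floor, and raised to it the difference is 0.19. Usp18, which removes ISG15 from proteins, stood at 0.29, and Bst2 at -0.23.

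On fructose, the median of the 40 effectors assessed was -0.02, against -0.05 over all genes assessed. Of the 40, 0 were at least 2-fold higher (0.64% of all genes were) and 2 were at least 2-fold lower (1.16% were). These were Apol9a and Apol9b, apolipoprotein L family genes induced by interferon in mice, at -1.11 and -1.05. Apol9a read 7.62 in WT at 3 weeks and 8.74 on chow, and WT at 2 weeks stood at -0.42 over chow. Apol9b read 8.23 in WT at 3 weeks and 9.28 on chow, and in the 2-week WT pool it stood at -0.69 over chow. Neither passed 2-fold at 2 weeks. Whether the probe sets of Apol9a and Apol9b tell these 2 genes apart was not tested. The same 46 bases around the ISRE cores stand before both starts. They lie at chr15:77411109-77411154 (minus strand) for Apol9a and chr15:77729020-77729065 (plus strand) for Apol9b.
Apol9a and Apol9b: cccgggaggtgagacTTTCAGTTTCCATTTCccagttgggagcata

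Oas2 had the largest positive difference on fructose, 0.89, with 5.06 in WT at 3 weeks and 4.17 on chow, and WT at 2 weeks stood just under 2-fold above chow. Against WT at 3 weeks the null pool had a median of 0.33 over 41 effectors, where the median over all genes was 0.11, with Oasl1 and Apol9a at least 2-fold higher (3.38% of all genes were) and 33 of 41 positive. Against WT at 2 weeks 26 of 44 were positive. The WT fructose pools differed as well. For WT at 3 weeks over WT at 2 weeks 33 of 42 effectors were negative, with a median of -0.25, against -0.02 over all genes.

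Steps upstream of these genes showed little difference. Over all genes assessed, 2.03% were at least 2-fold higher and 1.43% lower in the null comparison. On fructose 0.64% were higher and 1.16% lower. Of 9 interferon genes, 6 were below the floor in every pool, Ifnb1 and Ifng among them, and the 3 above it, Ifna1, Ifna4 and Ifnl2, differed by at most 0.63 in absolute size. Those are short genes of a family of similar copies, and their values are uncertain. Interferon receptors and JAK kinases had medians of -0.03 in the null comparison and -0.02 on fructose, with 0 of 8 past 2-fold in either. Ifnar1 read 7.87 in the Chrebp-null pool and 7.89 in WT at 2 weeks, and 7.94 in WT at 3 weeks and 7.98 on chow. Ifngr1 stood highest in the null comparison at 0.45, and Tyk2 lowest on fructose at -0.64. The STAT and IRF factors had medians of -0.03 and -0.06, with 0 of 7 past 2-fold in either comparison. Irf2 stood at -0.54 in the null comparison, Stat3 at -0.49 on fructose, and Stat2 at 0.15 and 0.31.

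The inhibitors of interferon signalling were positive in 5 of 5 in the null comparison, with Socs3 at 0.70. Their median was 0.26, against 0.10 over all genes assessed. Against WT at 3 weeks 4 of 5 were positive and Pias1 stood at -0.26, with a median of 0.39, against 0.11 over all genes. On fructose their median was -0.05, with Socs3 at -0.57. None passed 2-fold. Sensors of foreign nucleic acid and their adaptors had medians of 0.12 and 0.04, with 0 of 12 past 2-fold in either. Ikbke stood at 0.55 in the null comparison and at -0.80 on fructose. Tlr9 stood at 0.67 in the null comparison as read, and at 0.46 if its WT level, which was below the floor, is raised to it. Ddx58, the RNA sensor RIG-I, stood at 0.15 and 0.31. Genes of MHC class I presentation and the immunoproteasome had medians of 0.02 and -0.23, with 10 of 12 negative on fructose. Tapbp, the peptide-loading protein tapasin, was the 1 gene past 2-fold there, at -1.10, where 1.16% of all genes were at least 2-fold lower. In WT at 2 weeks over chow Tapbp stood at -0.28. B2m stood at 0.09 and -0.13.

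**Figure D5:**
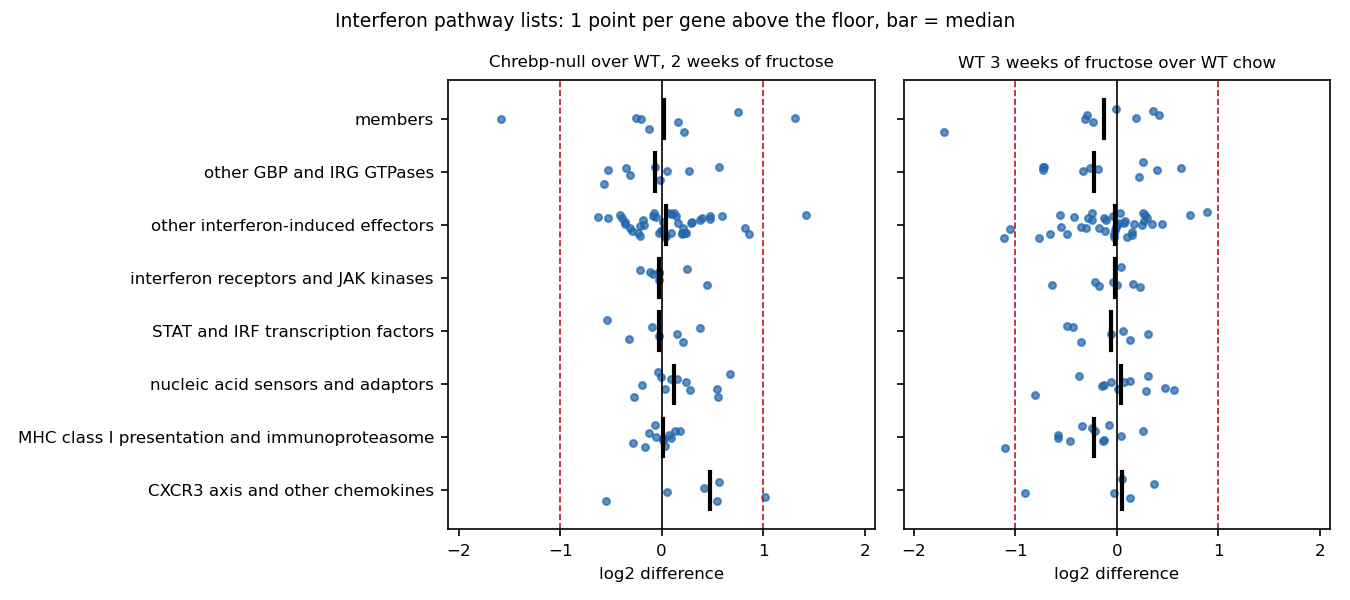
Log2 differences of the genes above the floor in 8 lists, 1 point per gene and a black bar at the median, for Chrebp-null over WT at 2 weeks of fructose (left) and WT at 3 weeks of fructose over chow (right). Dashed lines mark 2-fold. Medians as read lie between -0.23 and 0.48, the highest being that of the chemokines on the left, which is 0.26 once levels below the floor are raised to it. Past 2-fold are Gbp10 in both panels, Cxcl10, Oasl1 and Cxcl11 on the left and Apol9a, Apol9b and Tapbp on the right.

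The gene whose 4 levels, each taken relative to its own mean, lay nearest to those of Gbp10 was Tcf24, a transcription factor gene, at a root mean square distance of 0.30 over the 4 pools. It was nearest among 12186 genes above the floor. It read 4.64 in the Chrebp-null pool and 5.79 in WT at 2 weeks, and 4.77 in WT at 3 weeks and 6.31 on chow, and like Gbp10 it was at least 2-fold lower in both comparisons. Abca8a, a lipid transporter gene, and Car1, a carbonic anhydrase gene, followed at 0.39 and 0.42. To the mean profile of the 8 members the nearest were Ssc5d, Fah, Gpr26, Fam107b and Park7, all within 0.013. That mean profile is nearly flat, between -0.10 and 0.19, so that many genes lie near it.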

How the data were processed

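Liver RNA of 4 pools was measured on 1 array each. The authors deposited log2 expression values for 41345 probe sets, made with affy and RMA per the submitters' processing notes. RMA subtracts background, normalizes arrays and summarises probes, and tends to compress differences of dim genes. For versions, settings and the genome build nothing is given in the sources used here. Arrays hold no read depth. The platform annotation gives 1 symbol for 23521 probe sets, several for 1814 and none for 16010. Groups came from the labels. A difference is 1 array minus another, with no test.

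The members and gene lists were chosen with earlier results of these data known. All members were to be named, with up to 3 genes per list with the largest differences, list genes past 2-fold, Mlxipl, and the nearest 5 and 3 profiles. Further list genes and the NF-kB core were added after values were seen. The steps were tested on simulated data, in which the planted differences were larger than 2-fold and lay in genes well above the floor. That test does not cover calls near 2-fold or near the floor. Computations used Python 3.11.15, numpy 2.4.6, pandas 2.3.3 and statsmodels 0.14.6, and figures matplotlib 3.10.9.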

Additional observations from a re-analysis of the deposited data

How the results depend on the processing

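No paired analysis was possible because each group is 1 array. Values were recomputed without a floor, with the floor raised to the 75 percentile (5.93), with median centring, quantile normalization, removal of the trend with level (lowess, fraction 0.3), the mean of a gene's probe sets, with 1.5-fold or 3-fold as threshold, and with the WT fructose pool exchanged for the other one or for the mean of both. Scaling moved the median of all genes by at most 0.10 in absolute size, with trend removal in the null comparison. No member past 2-fold changed sign. With the other WT fructose pool Gbp10 stood at -0.77 and -0.89 and Cxcl10 at 0.84, so that 0 members were past 2-fold in either comparison, the member median on fructose was -0.39, and the effector median in the null comparison 0.33. There 2 other interferon-induced genes (effectors and GTPases) were higher and 1 lower. With the mean of both pools 1 such gene was lower in the null comparison and 1 on fructose. With the other WT pool on fructose 2 such genes were lower, but these were Gbp11 and Oas1g in place of Apol9a and Apol9b. Oas1g stood there at -1.02 as read, and at -0.35 with levels below the floor raised to it. The floor at the 75 percentile left 4 members assessed and 0 higher in the null comparison. At 1.5-fold, 2 members were higher there, with 4 other interferon-induced genes higher and 1 lower, and 3 higher and 7 lower on fructose. At 3-fold, 0 members passed in the null comparison, 0 other interferon-induced genes in either, and Gbp10 on fructose did. Under the other alternatives the counts were those given above.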
